A study of Mus musculus with 8 samples.

Results

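The genes described here carry symbols of the enzyme families that add methyl groups to lysines of histones or to DNA (writers) or take them off (erasers). They were chosen by symbol alone, as the rows of the deposited table whose symbol begins with Kdm or Kmt and a digit, with Setd, Suv, Ehmt or Ezh, or with Dnmt and a digit, together with Tet1, Tet2 and Tet3. The pattern matched 50 symbols, of which a Y-linked one was left out by the rule, and the remaining 49 were taken, of 24344 distinct symbols in the table. By family 29 of them were grouped as writers and 20 as erasers, and not every one is itself such an enzyme. Among those grouped as writers, Setd3 and Setd6 methylate other proteins and Kmt2e has little known activity. Dnmt3l is catalytically inactive, and Dnmt3aos is an antisense transcript. The deposited table uses older names for some of them: Setd8 is now Kmt5a, Suv420h1 is Kmt5b and Suv420h2 is Kmt5c.

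The values came from bulk RNA-seq of occipital cortex homogenate, the region where the visual areas of the neocortex lie. The mice were C57BL/6J at postnatal day 35. In 4 libraries the mice had gone 48 h without food (fasted), and in the other 4 they had fed ad libitum. All carried the same strain background with no transgene or further agent named in the labels, which do not give the sex or say whether each library came from a separate animal, so the p-values measure only the spread between these libraries.

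Histone lysine methyltransferases, most of which share a catalytic SET domain, take the methyl group from S-adenosylmethionine, and so do the DNA methyltransferases. Methylation of histone H3 at lysine 4 (H3K4) marks active promoters and enhancers, methylation at H3K36 marks transcribed gene bodies, and methylation at H3K9, H3K27 and H4K20 is tied to silent or compact chromatin. Erasers of the Kdm2 to Kdm8 families carry a JmjC domain and, like the Tet enzymes that oxidise methylated cytosine, use oxygen, iron and 2-oxoglutarate, whereas Kdm1a and Kdm1b use flavin. Neurons of the postnatal cortex are rich in both methylated and hydroxymethylated cytosine, and several of these genes cause intellectual disability in humans when mutated.

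FPKM values count the fragments of a gene relative to its transcript length and to all fragments of the library, so that levels can be compared between genes per length. The depth estimated from the table was 18000000 to 21900000 fragments per library, an uncertain figure from a search confined to a set range, and 12217 to 12440 genes reached 1 FPKM in a library. Odd-numbered libraries of both groups held Y-linked transcripts and even-numbered ones did not. Ad libitum replicate 3 held both Xist, the RNA of the inactive X chromosome, at 32.2 FPKM and the Y-linked Ddx3y at 5.67 FPKM, against 10.5 to 14.4 FPKM of Ddx3y in the other odd-numbered libraries. Counts of called genes and the log2 change of Kdm5c are given below with and without this library. The changes in odd-numbered libraries and the ratios between sister genes are given only with it. In bulk tissue, fewer cells of a type and less RNA per cell cannot be told apart.

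Of the 49 genes 45 reached 1 FPKM in at least 4 libraries and were tested. After 48 h without food 9 of the 45 rose and 4 fell (limma on log2(FPKM + 1), Benjamini-Hochberg adjusted p under 0.05 over 12377 tested genes). The 9 that rose were Tet2, Kdm3a, Kmt2b, Setd1a, Kdm4b, Suv39h1, Kdm5a, Setdb1 and Kdm2a, with log2 changes of 0.16 to 0.59. The 4 that fell were Suv420h2, Setd7, Setd6 and Kdm2b, with log2 changes of -0.47 to -0.21. The 13 called members are 28.9% of those tested, beside 25.8% of all tested genes. Those that rose are 20%, beside 9.56% of all tested genes, and those that fell are 8.89%, beside 16.3%. The median log2 change was 0.08 over the 45 members and -0.02 over all tested genes, and 35 members had a positive log2 change, or 77.8%, beside 44.7% of all tested genes. No overlap between fasted and ad libitum libraries was seen in 13 members with higher values in fasted cortex (28.9%, beside 11.1% of all tested genes) and in 4 with lower values (8.89%, beside 16.5%). These shares describe a set chosen by symbol and carry no test of the set.

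Most of these changes were small, and some calls hung on single libraries. Of the 13 called members 7 (Tet2, Kdm3a, Kmt2b, Setd1a, Kdm4b, Setd7 and Suv420h2) passed in every one of the 19 alternative fits, which differ in scaling, filter, correction or a left-out library. The other 6 passed in 9 to 14 of them each, with no change of sign. Without fasted replicate 3 or ad libitum replicate 1 the members that rose numbered 5, and without ad libitum replicate 4 they numbered 14. Of all tested genes 7.0%, 7.6% and 9.7% rose in those fits, in that order, beside 9.56% with all libraries. Without ad libitum replicate 3, the library with Xist and Y-linked transcripts together, 5 rose and 3 fell, and Kdm2a, Kdm2b, Kdm5a, Setdb1 and Suv39h1 were no longer called. Among all tested genes 6.8% rose and 11.4% fell in that fit. The members that fell numbered 2 without fasted replicate 1, 2 or 4 or ad libitum replicate 1 or 2. In those fits 11.58% to 14.75% of all tested genes fell, beside 16.3% with all libraries. With the shared replicate number as a block 15 members rose and 4 fell, since Ezh1, Kmt2a, Kmt2e, Setd1b, Setd5 and Tet3 then passed as well. Calls also grew over all tested genes with the block, to 14.3% higher and 22.1% lower, beside 9.56% and 16.3% without it.

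**Figure D1:**
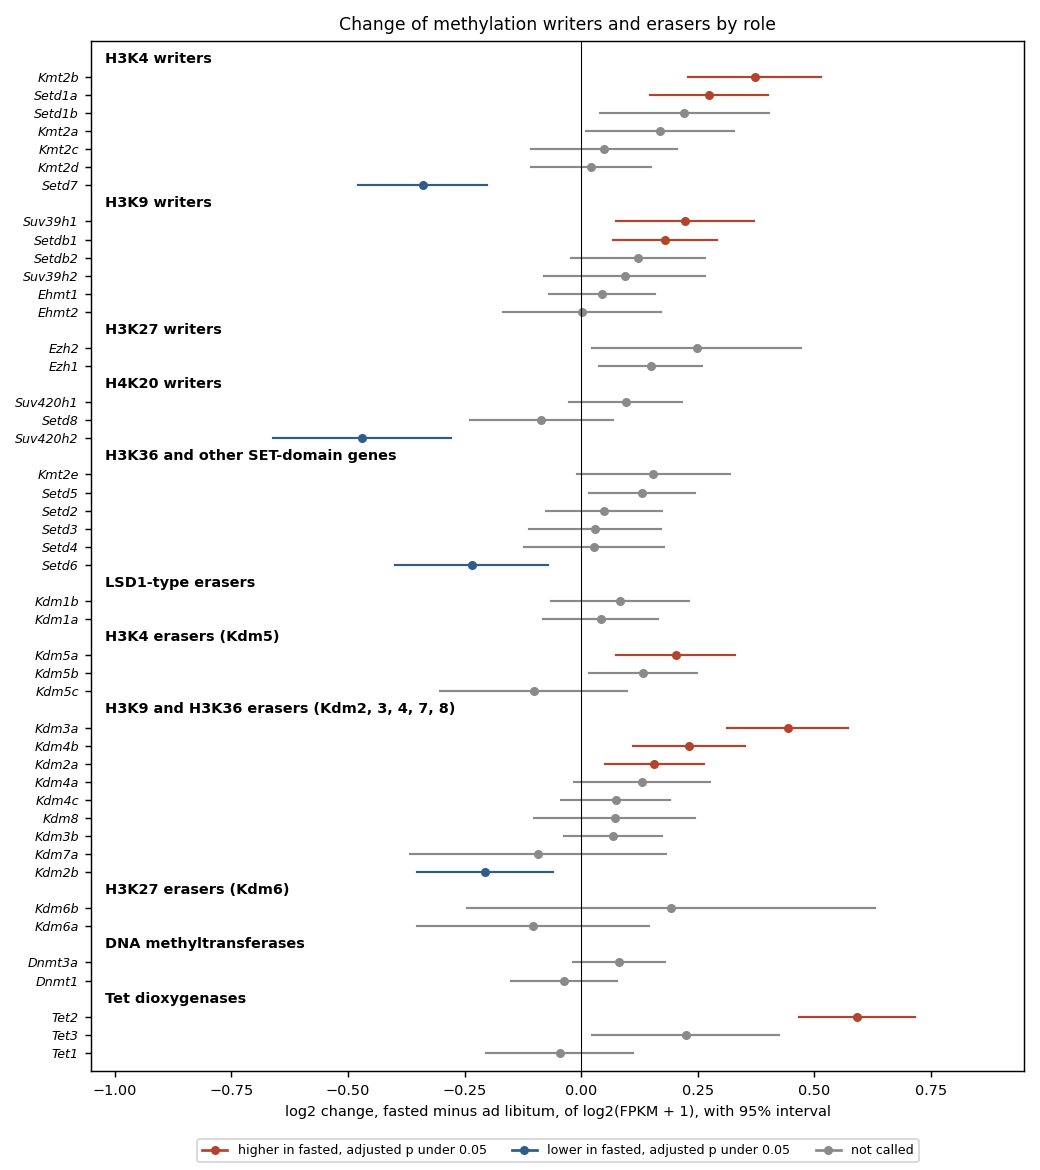
Each row is 1 of the 45 tested genes, grouped by role, with its log2 change (fasted minus ad libitum, on log2(FPKM + 1)) and 95% interval from limma. The largest rise was that of Tet2 at 0.59 and the largest fall that of Suv420h2 at -0.47, and most grey intervals lie across or just right of 0.

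Levels spread over a wide range. The most abundant was Setd3, which methylates a histidine of actin, at 47.4 FPKM ± 2.93 in fasted and 46.4 FPKM ± 3.24 in ad libitum libraries (SD, n = 4 each). Ehmt2, Setd7, Setd5 and Kmt2e followed, each at a mean of 21.2 to 26.8 FPKM over all libraries. The median member stood at 8.07 FPKM, beside 8.28 FPKM over all tested genes. The least abundant of those tested was Kdm8, at a mean of 1.08 FPKM.

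The 4 genes that were not tested stayed under 1 FPKM in every library. Kdm4d, a testis-rich H3K9 demethylase, had 0.410, 0.522, 0.464 and 0.657 FPKM in fasted libraries, against 0.321, 0.388, 0.280 and 0.266 FPKM in ad libitum libraries. Its groups did not overlap, and it was called higher in the fit with no filter on low values, as were 6.36% of all genes in that fit. At this level Kdm4d stood for only an estimated 14.1 to 35.8 fragments per library. Dnmt3b had 0.182 to 0.313 FPKM in fasted and 0.130 to 0.235 FPKM in ad libitum libraries. Dnmt3l, a catalytically inactive partner of the de novo DNA methyltransferases, and Dnmt3aos, an antisense transcript at Dnmt3a, were listed at 0 in some libraries of both groups.

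**Figure D2:**
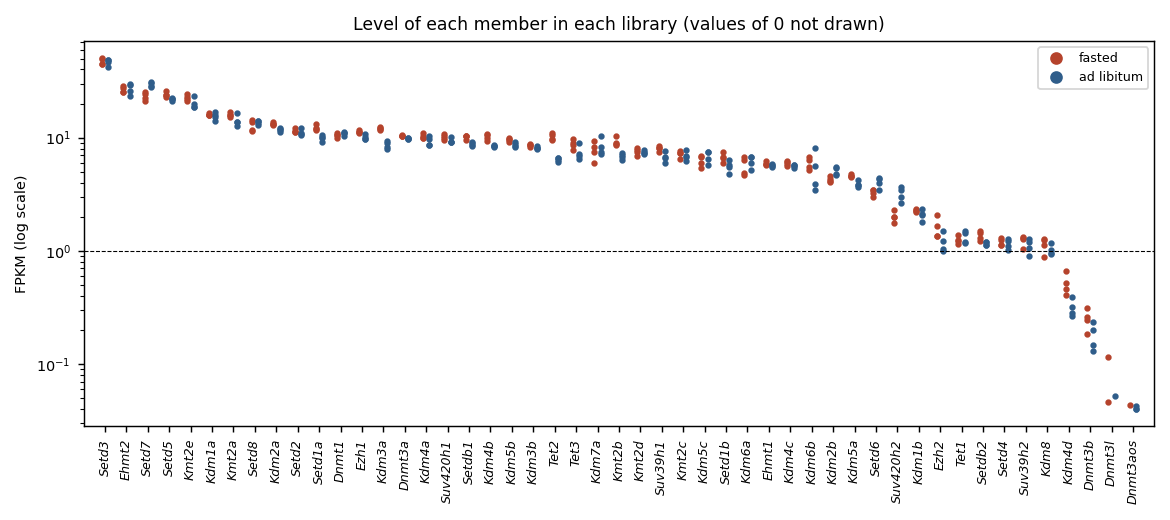
FPKM on a log scale for all 49 genes, ordered by mean, with each dot 1 library (fasted left, ad libitum right of each gene's position; values of 0 not drawn) and a dashed line at 1 FPKM. Levels run between 47.4 FPKM for Setd3 in fasted libraries and the 4 genes below the line, and for most genes the groups lie close together.

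Among the 45 tested members the largest change on the log2 scale was in Tet2 (chr3:133463679-133545139 in GRCm38), one of the dioxygenases that convert methylated cytosine to its hydroxymethylated form. Tet2 had 9.498, 9.79, 10.6 and 10.9 FPKM in fasted libraries, against 6.40, 6.14, 6.56 and 6.56 FPKM in ad libitum libraries. The lowest fasted library stood well above the highest ad libitum one, and the SD within groups was 0.650 FPKM in fasted and 0.198 FPKM in ad libitum libraries. Tet2 changed by 0.59 on the log2 scale (SE 0.06, limma adjusted p = 9.59e-05), a ratio of means of 1.59, and adjusted p ran between 1.85e-05 and 0.000749 over the 19 alternatives. The rise was seen in each replicate number, at 0.51, 0.59, 0.61 and 0.65 on the log2 scale.

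The other members of the family did not pass. Tet3, the form that works in the zygote and in neurons, had 8.98, 7.75, 8.61 and 9.69 FPKM in fasted libraries, against 6.50, 6.92, 7.15 and 8.97 FPKM in ad libitum libraries. Ad libitum replicate 4 lay inside the fasted range and the other ad libitum libraries below it. The log2 change of Tet3 was 0.22 (95% interval 0.02 to 0.42, limma adjusted p = 0.0932). It passed with the replicate block (limma adjusted p = 0.0174) and without ad libitum replicate 4 (log2 change 0.31, limma adjusted p = 0.00686). Tet1 had 1.14 to 1.385 FPKM in fasted and 1.17 to 1.48 FPKM in ad libitum libraries, with a log2 change of -0.05 (95% interval -0.20 to 0.11). In cortex at this age Tet2 and Tet3 thus stood several-fold above Tet1 in every library.

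DNA methyltransferases gave no call in limma, with 0 of the 2 tested at an unadjusted p under 0.05. Dnmt1, which copies methylation onto newly made strands, averaged 10.6 FPKM ± 0.497 in fasted and 10.9 FPKM ± 0.338 in ad libitum libraries (SD, n = 4 each), with a log2 change of -0.04 (95% interval -0.15 to 0.08). Dnmt3a, the main de novo enzyme of neurons, had 10.5, 10.3, 10.4 and 10.4 FPKM in fasted libraries, against 9.65, 9.86, 9.90 and 9.69 FPKM in ad libitum libraries. Its groups did not overlap, yet the log2 change was 0.08 (95% interval -0.02 to 0.18, limma adjusted p = 0.209), and it did not pass in any of the 19 alternatives.

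The start regions of the most changed members with a RefSeq entry are shown next, since Tet2 and Kdm3a rose and Setd7 and Suv420h2 fell in every alternative fit. Each is the stretch before the RefSeq start on GRCm38.p6, 5′ to 3′ on the gene's own strand, without bases that GENCODE places in an exon of the gene, and capitals mark CpG, the dinucleotide that DNA methyltransferases and Tet enzymes act on.
Tet2, chr3:133544391-133544640, minus strand: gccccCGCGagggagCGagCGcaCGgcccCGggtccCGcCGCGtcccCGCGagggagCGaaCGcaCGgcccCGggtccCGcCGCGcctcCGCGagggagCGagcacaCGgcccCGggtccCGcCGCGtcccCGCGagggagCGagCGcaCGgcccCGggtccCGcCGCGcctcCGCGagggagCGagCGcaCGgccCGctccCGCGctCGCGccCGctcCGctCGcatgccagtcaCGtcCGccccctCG
Kdm3a, chr6:71632991-71633167, minus strand: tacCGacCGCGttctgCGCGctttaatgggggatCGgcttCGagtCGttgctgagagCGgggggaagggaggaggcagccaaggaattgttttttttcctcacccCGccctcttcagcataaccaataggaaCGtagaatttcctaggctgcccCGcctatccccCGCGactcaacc
Setd7, chr3:51560880-51561073, minus strand: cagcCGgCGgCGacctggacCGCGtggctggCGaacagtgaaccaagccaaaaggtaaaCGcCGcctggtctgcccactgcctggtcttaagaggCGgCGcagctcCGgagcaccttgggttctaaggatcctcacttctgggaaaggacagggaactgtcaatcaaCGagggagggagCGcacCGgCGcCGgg
Suv420h2, chr7:4739877-4740114, plus strand: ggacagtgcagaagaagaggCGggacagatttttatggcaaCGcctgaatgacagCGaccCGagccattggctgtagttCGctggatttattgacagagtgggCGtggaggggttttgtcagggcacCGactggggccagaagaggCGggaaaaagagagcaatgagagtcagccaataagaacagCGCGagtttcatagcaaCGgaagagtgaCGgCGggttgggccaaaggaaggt

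All 4 held more CpG than the median promoter, by unlike amounts. Over the full 250 bases before the RefSeq start, Tet2 held 51 CpG, more than 99.9% of the 32851 promoters in the RefSeq table. They come in a repeated pattern that can be read in the letters above. Kdm3a held 20, Setd7 17 and Suv420h2 13, more than 82.05%, 76.48% and 68.46% of those promoters in that order, and the median promoter held 6. The 37 tested members with an entry had a median of 20, and 2 members that were not called, Kdm4c and Setd5, held 0. The stretch of Setd5 (chr6:113104685-113104934) lies inside the gene, whose GENCODE start is at 113077365, so it does not describe that start. The same holds for Tet2, whose stretch above lies inside the gene, with its GENCODE start on the minus strand at 133545139. Stretches of Setd1a, Ezh2, Kdm2b, Dnmt3a, Tet1 and Tet3 also lie inside their genes. A set of 5 short motifs was searched on both strands of these 250 bases. ACANNNTGT, a loose form of the glucocorticoid receptor site, was in 0 of the 37 members and in 5.84% of all promoters. ACGTG, the core of the hypoxia response element, was in 7 of the 37 and in 16.6% of all promoters. Tet2 held it once, starting 16 bases before its RefSeq start. GTAAACA, a FoxO site, was in 1 of the 37 (Kdm2b) and in 3.17% of all promoters. TGACG, part of the CREB site, which can share letters with ACGTG, was in 6 of the 37 and in 17.8% of all promoters, and GGGCGG, an Sp1 site, was in 24 of the 37 and in 32.7%. A match is only a run of letters, and whether any of these stretches is bound was not measured.

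Of 7 tested H3K4 writers 2 rose and 1 fell. Kmt2b (chr7:30568858-30588726), a writer of H3K4 trimethylation at CpG-rich promoters that is required for memory in mice, had 8.57, 10.3, 8.91 and 8.83 FPKM in fasted libraries, against 6.40, 7.25, 6.99 and 6.70 FPKM in ad libitum libraries. The groups did not overlap, and Kmt2b changed by 0.37 on the log2 scale (SE 0.06, limma adjusted p = 0.00225). Setd1a (chr7:127776670-127800122), which carries out much of the bulk H3K4 trimethylation, had 12.2, 13.1, 11.9 and 11.8 FPKM in fasted libraries, against 10.6, 10.2, 9.96 and 9.12 FPKM in ad libitum libraries. Its groups did not overlap either, and the log2 change was 0.27 (SE 0.06, limma adjusted p = 0.00622). In GENCODE 51.8% of the exonic bases of Setd1a also belong to Gm49388 on the same strand, so its value may hold reads of that entry.

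Setd7 (chr3:51515319-51560879) went the other way. This enzyme adds a single methyl group to H3K4 in vitro and to a number of other proteins. It had 22.4, 21.03, 25.1 and 24.15 FPKM in fasted libraries, against 27.8, 28.8, 30.3 and 31.2 FPKM in ad libitum libraries. Every fasted library was below every ad libitum one. Setd7 fell by 0.34 on the log2 scale (SE 0.06, limma adjusted p = 0.00313), and the fasted library was the lower in each replicate number.

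The remaining H3K4 writers were not called. Setd1b, the sister of Setd1a, had 5.98 to 7.53 FPKM in fasted and 4.79 to 6.36 FPKM in ad libitum libraries, with a log2 change of 0.22 (limma adjusted p = 0.0711). It passed with the replicate block (limma adjusted p = 0.0235) and without ad libitum replicate 4 (limma adjusted p = 0.0207). Kmt2a, the sister of Kmt2b, had 15.1 to 16.8 FPKM in fasted and 12.7 to 16.5 FPKM in ad libitum libraries, with a log2 change of 0.17 (limma adjusted p = 0.109). It passed with the block (limma adjusted p = 0.0236), with the GC and length correction (limma adjusted p = 0.0276) and without ad libitum replicate 4 (limma adjusted p = 0.00747). Kmt2c and Kmt2d, which write H3K4 monomethylation at enhancers, had log2 changes of 0.05 (95% interval -0.11 to 0.20) and 0.02 (-0.11 to 0.15).

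Of the Kdm5 family, which removes H3K4 methylation, Kdm5a alone of 3 tested was called, and its rise was also small. Kdm5a had 4.44, 4.59, 4.82 and 4.61 FPKM in fasted libraries, against 3.69, 3.84, 3.78 and 4.23 FPKM in ad libitum libraries. The groups did not overlap, with ad libitum replicate 4 the nearest to the fasted range. On the log2 scale Kdm5a changed by 0.20 (SE 0.06, limma adjusted p = 0.0257), and leaving out single libraries moved the adjusted p between 0.0125 and 0.0732. Kdm5b had 9.21 to 9.99 FPKM in fasted and 8.26 to 9.2 FPKM in ad libitum libraries, without overlap but with a limma adjusted p of 0.0859. Kdm1a (LSD1), which removes H3K4 methylation in the CoREST complex, averaged 15.9 FPKM ± 0.306 in fasted and 15.5 FPKM ± 1.10 in ad libitum libraries (SD, n = 4 each), with a log2 change of 0.04 (95% interval -0.08 to 0.17).

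Among the 6 H3K9 writers 2 rose and 0 fell, also at an unadjusted p under 0.05. Setdb1, which silences retroelements together with the KAP1 protein, had 10.4, 9.57, 10.4 and 10.2 FPKM in fasted libraries, against 8.52, 9.18, 8.68 and 8.93 FPKM in ad libitum libraries. Setdb1 did not overlap between the groups. Its log2 change was 0.18 (SE 0.05, limma adjusted p = 0.0232), and adjusted p reached 0.0678 when single libraries were left out. Suv39h1, which trimethylates H3K9 in heterochromatin around centromeres, had 8.365, 8.07, 8.09 and 7.52 FPKM in fasted libraries, against 6.62, 7.61, 6.70 and 6.03 FPKM in ad libitum libraries. Here the groups overlapped, since ad libitum replicate 2 lay above fasted replicate 4, and within each replicate number the fasted library was the higher. Suv39h1 changed by 0.22 on the log2 scale (SE 0.07, limma adjusted p = 0.0311). Leaving out single libraries took the call of Suv39h1 away in 6 of 8 cases, with adjusted p up to 0.0776, and 14.6% of its exonic bases are shared with an antisense gene, Gm14820, in libraries whose strandedness is not stated.

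Ehmt1 and Ehmt2 (GLP and G9a), the paired writers of H3K9 dimethylation in euchromatin, did not pass. Ehmt1 averaged 5.89 FPKM ± 0.189 in fasted and 5.68 FPKM ± 0.158 in ad libitum libraries (SD, n = 4 each), with a log2 change of 0.04 (95% interval -0.07 to 0.16). Ehmt2 averaged 26.8 FPKM ± 1.62 in fasted and 26.9 FPKM ± 2.98 in ad libitum libraries (SD, n = 4 each), with a log2 change of 0.00 (95% interval -0.17 to 0.17). Changes of more than about 0.17 on the log2 scale in either direction lie outside these intervals.

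JmjC erasers of H3K9 and H3K36, the role with the most tested members, held 3 rises and 1 fall among 9 tested. The calls are 44.4% of those tested, beside 42.9% among H3K4 writers and 25.8% of all tested genes. Kdm3a (chr6:71588972-71632990), which removes H3K9 methylation and whose loss makes mice obese, had 12.3, 11.6, 12.4 and 12.03 FPKM in fasted libraries, against 7.975, 8.98, 8.23 and 9.38 FPKM in ad libitum libraries. Every fasted library was above every ad libitum one by a wide margin. Kdm3a changed by 0.44 on the log2 scale (SE 0.06, limma adjusted p = 0.000562), a ratio of means of 1.40, and adjusted p stayed at or below 0.0033 over the 19 alternatives. Its sister Kdm3b averaged 8.57 FPKM ± 0.215 in fasted and 8.12 FPKM ± 0.172 in ad libitum libraries (SD, n = 4 each), with a log2 change of 0.07 (95% interval -0.04 to 0.17). In GENCODE 24.6% of the exonic bases of Kdm3b are shared with Gm26538 on the other strand.

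Kdm4b, an eraser of trimethylated H3K9 and H3K36, had 10.5, 10.7, 9.27 and 9.99 FPKM in fasted libraries, against 8.56, 8.51, 8.34 and 8.40 FPKM in ad libitum libraries. The ad libitum values were tightly grouped and all lay below the fasted ones. Its log2 change was 0.23 (SE 0.05, limma adjusted p = 0.0105). Kdm4a and Kdm4c, which act on the same marks, had log2 changes of 0.13 (95% interval -0.01 to 0.28) and 0.07 (95% interval -0.04 to 0.19) and were not called.

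Kdm2a and Kdm2b, erasers of H3K36 dimethylation with a CXXC domain that binds unmethylated CpG, were called in opposite directions. Kdm2a had 13.7, 12.95, 13.1 and 13.2 FPKM in fasted libraries, against 11.6, 11.95, 11.3 and 12.2 FPKM in ad libitum libraries. Kdm2b, which also brings a Polycomb complex to CpG islands, had 4.05, 4.17, 4.57 and 4.35 FPKM in fasted libraries, against 5.52, 5.43, 4.81 and 4.65 FPKM in ad libitum libraries. Neither gene's groups overlapped, though ad libitum replicates 3 and 4 lay close to the fasted values of Kdm2b. The log2 change was 0.16 (SE 0.05, limma adjusted p = 0.0341) for Kdm2a and -0.21 (SE 0.07, limma adjusted p = 0.0405) for Kdm2b. Leaving out single libraries moved adjusted p up to 0.106 for Kdm2a and 0.108 for Kdm2b.

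Genes of H3K27 methylation gave no call in limma, although 2 of the 4 tested, Ezh1 and Ezh2, had an unadjusted p under 0.05. Ezh1, the catalytic subunit of Polycomb repressive complex 2 that prevails in cells that no longer divide, had 11.3, 11.2, 11.7 and 10.9 FPKM in fasted libraries, against 10.2, 10.7, 9.81 and 9.66 FPKM in ad libitum libraries. Its groups did not overlap, and it missed the threshold narrowly, with a log2 change of 0.15 (95% interval 0.04 to 0.26, limma adjusted p = 0.0508, and 0.0375 with the block). It passed in 7 of the 19 alternatives. Ezh2, the subunit of dividing cells, was far lower, at 2.06, 1.34, 1.35 and 1.67 FPKM in fasted libraries, against 1.23, 1.05, 1.49 and 0.992 FPKM in ad libitum libraries. Its groups overlapped, and the log2 change was 0.25 (95% interval 0.02 to 0.47, limma adjusted p = 0.0975).

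The H3K27 eraser Kdm6b, known to be induced by activity and inflammation, varied widely between ad libitum libraries. It had 5.50, 5.18, 6.31 and 6.78 FPKM in fasted libraries, against 3.47, 3.93, 5.64 and 8.17 FPKM in ad libitum libraries. Replicate 4 was the highest in both groups, and ad libitum replicate 4 stood above every fasted library. The log2 change was 0.19 (95% interval -0.24 to 0.63), and without ad libitum replicate 4 it was 0.39 (limma adjusted p = 0.046).

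H4K20 writers held the largest fall among the tested members. Suv420h2 (chr7:4740115-4747514), which makes the trimethylated form in heterochromatin, had 2.27, 1.77, 1.99 and 1.99 FPKM in fasted libraries, against 3.44, 2.99, 3.65 and 2.64 FPKM in ad libitum libraries. All fasted libraries lay below all ad libitum ones. Suv420h2 fell by 0.47 on the log2 scale (SE 0.09, limma adjusted p = 0.00302), a ratio of means of 0.632. At this level the gene stood for an estimated 88.7 to 190 fragments per library. Its sister Suv420h1, which makes the dimethylated and trimethylated forms, averaged 10.1 FPKM ± 0.513 in fasted and 9.41 FPKM ± 0.418 in ad libitum libraries (SD, n = 4 each), with a log2 change of 0.09 (95% interval -0.03 to 0.22). Setd8, the monomethylase, had a log2 change of -0.09 (95% interval -0.24 to 0.07).

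Setd6, which methylates the NF-kappaB subunit RelA, was the only one of the 6 H3K36 and other SET-domain genes to be called. It had 3.44, 3.22, 2.96 and 3.44 FPKM in fasted libraries, against 4.30, 4.41, 3.45 and 3.96 FPKM in ad libitum libraries. The groups all but touched, since ad libitum replicate 3 lay just above the highest fasted library. Setd6 fell by 0.24 on the log2 scale (SE 0.07, limma adjusted p = 0.0391), and it passed in 9 of the 19 alternatives. Setd2, the writer of H3K36 trimethylation, had a log2 change of 0.05 (95% interval -0.08 to 0.17). Setd5, a gene mutated in intellectual disability, at 22.6 to 25.8 FPKM in fasted and 21.1 to 22.4 FPKM in ad libitum libraries, did not overlap between groups and had a limma adjusted p of 0.088 (0.0498 with the block). Kmt2e, a SET-domain protein with little known activity, had a limma adjusted p of 0.152 (0.0231 with the block).

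The remaining members were not called either. Setdb2, a relative of Setdb1, had 1.21 to 1.49 FPKM in fasted and 1.13 to 1.204 FPKM in ad libitum libraries, without overlap (limma adjusted p = 0.19). Together with Ezh1, Setd5, Kdm5b and Dnmt3a it makes 5 members with no overlap between the groups that missed the threshold. Suv39h2, the sister of Suv39h1, had 1.05 to 1.34 FPKM in fasted and 0.895 to 1.27 FPKM in ad libitum libraries. Kdm1b, the flavin-dependent relative of Kdm1a, had 2.18 to 2.35 FPKM in fasted and 1.80 to 2.325 FPKM in ad libitum libraries. Kdm7a, which acts on H3K9 and H3K27, had 5.95 to 9.38 FPKM in fasted and 7.19 to 10.25 FPKM in ad libitum libraries, with replicate 4 the highest in both groups. Setd4 and Kdm8 lay near 1 FPKM in both groups. Over all 32 members that were not called the log2 change ran between -0.10 and 0.25.

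**Figure D3:**
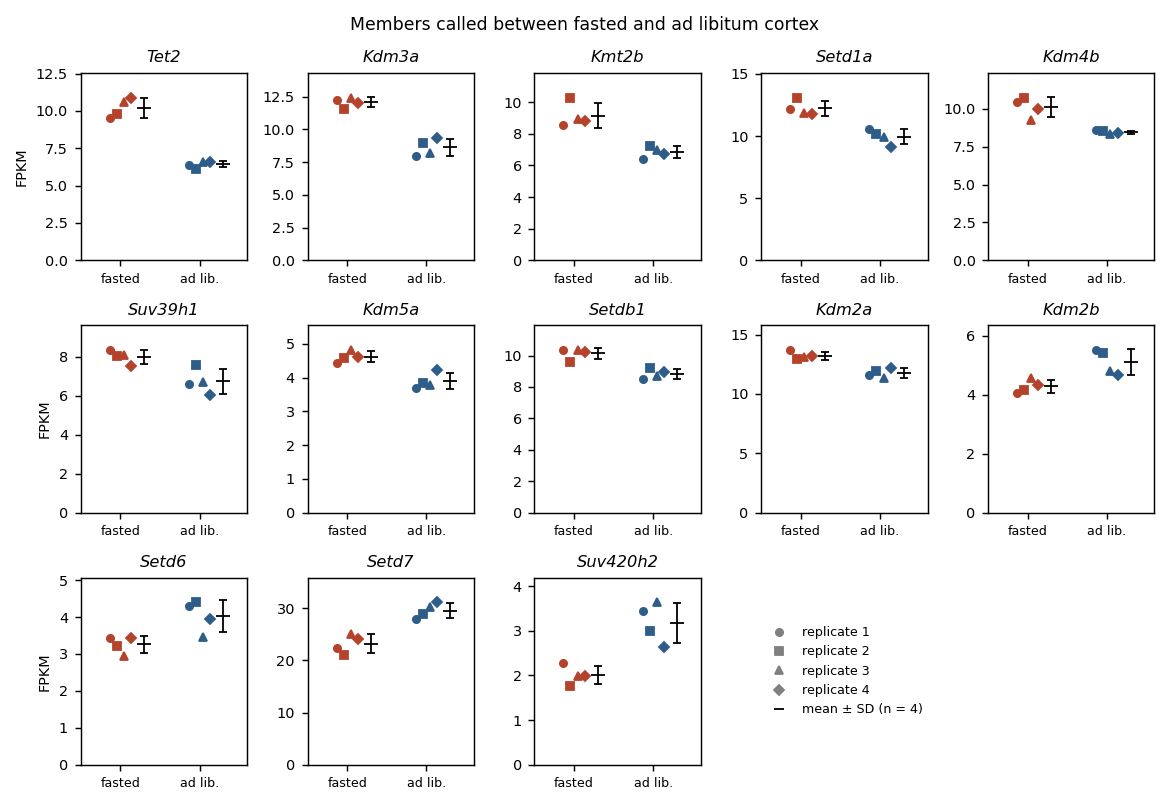
FPKM of the 13 called genes in each library (fasted left, ad libitum right; marker shape gives the replicate number; bars are mean ± SD, n = 4), with axes that start at 0. Tet2 in fasted libraries lies at 9.498 to 10.9 FPKM, clear of the ad libitum ones, whereas the groups of Suv39h1 overlap and those of Setd6 all but touch.

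Kdm5c and Kdm6a lie on the X chromosome and are known to escape its inactivation. Kdm5c, an H3K4 eraser tied to X-linked intellectual disability, had 5.99, 6.82, 5.42 and 6.75 FPKM in fasted libraries, against 5.70, 7.51, 6.45 and 7.496 FPKM in ad libitum libraries. Kdm6a, an H3K27 eraser, had 4.86, 6.40, 4.67 and 6.77 FPKM in fasted libraries, against 5.13, 6.71, 5.925 and 6.79 FPKM in ad libitum libraries. Both genes parted by odd and even replicate number: even-numbered libraries had 6.75 to 7.51 FPKM of Kdm5c and odd-numbered ones 5.42 to 6.45 FPKM. Even-numbered libraries had 6.40 to 6.79 FPKM of Kdm6a and odd-numbered ones 4.67 to 5.925 FPKM. Ad libitum replicate 3, the library with Xist and Y-linked transcripts together, was the highest odd-numbered library for both. Between feeding groups the log2 change was -0.10 for each (95% interval -0.30 to 0.10 for Kdm5c and -0.35 to 0.15 for Kdm6a). Within replicate numbers the fasted library was the lower at every number for Kdm6a and at all but number 1 for Kdm5c. Without ad libitum replicate 3 the log2 change of Kdm5c was -0.12. Leaving out single libraries moved it between -0.17 and -0.04 for Kdm5c and between -0.18 and -0.03 for Kdm6a. The X-linked Suv39h1 did not part by odd and even numbers, at 6.62 to 8.365 FPKM in odd-numbered and 6.03 to 8.07 FPKM in even-numbered libraries.

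When odd and even numbers entered the fit as a term, 9 members rose and 3 fell, and Kdm2b was the one call lost (limma adjusted p = 0.0523). Among all tested genes 9.32% rose and 16.1% fell with that term. All 13 called members had the same sign in odd-numbered as in even-numbered libraries. Tet2 changed by 0.56 on the log2 scale in odd-numbered and 0.62 in even-numbered libraries, Kdm3a by 0.55 and 0.33, and Suv420h2 by -0.54 and -0.40, each with 2 libraries per group and no test.

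**Figure D4:**
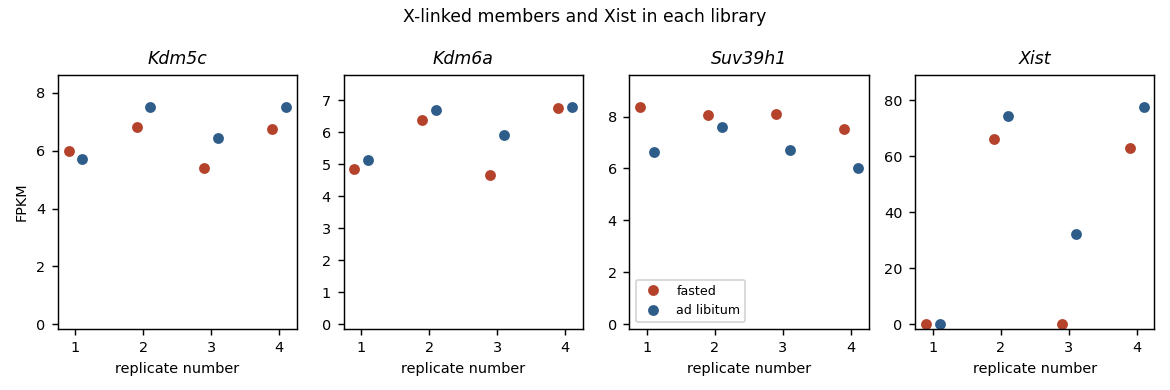
FPKM of the X-linked genes Kdm5c, Kdm6a and Suv39h1 and of Xist against replicate number, with fasted libraries drawn left of ad libitum ones. Kdm5c and Kdm6a are higher at even numbers, where Xist is 62.9 to 77.5 FPKM, and ad libitum replicate 3 has 32.2 FPKM of Xist.

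Dividing the level of a gene by that of its sister in the same library takes out any factor that scales all genes of that library alike. Effects that depend on transcript length or GC content are not taken out. The ratios were looked at after the values were known and use the same libraries as the tests above, so they are given as a description. An exact two-sided permutation test over 70 assignments, Benjamini-Hochberg adjusted over the 18 pairs, called none at 0.05. Its smallest p was 0.0286 (adjusted p = 0.0643), the lowest that 4 libraries per group can give. Of 18 pairs 8 had ratios that did not overlap between the groups. Every one of those pairs holds a member called above, so they partly restate those calls and are not separate results. Tet2 stood at 7.63 to 8.74 times Tet1 in fasted libraries and at 4.43 to 5.30 times Tet1 in ad libitum libraries. Tet2 over Tet3 was 1.06 to 1.26 in fasted and 0.732 to 0.984 in ad libitum libraries, so that the more abundant gene of the pair was Tet2 in each fasted library and Tet3 in each ad libitum one. Kdm3a over Kdm3b showed a similar parting, at 1.34 to 1.46 in fasted and 0.996 to 1.17 in ad libitum libraries.

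The H4K20 writers parted as well. Suv420h2 over Suv420h1 was 0.186 to 0.229 in fasted and 0.263 to 0.396 in ad libitum libraries. Kdm2a over Kdm2b was 2.86 to 3.39 in fasted and 2.10 to 2.63 in ad libitum libraries. Kmt2b over Kmt2a parted only just, at 0.525 to 0.643 in fasted and 0.407 to 0.525 in ad libitum libraries. The other pairs without overlap were Kdm4b over Kdm4c and Kdm5a over Kdm5c, the last of which was also higher at odd than at even numbers within each group.

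**Figure D5:**
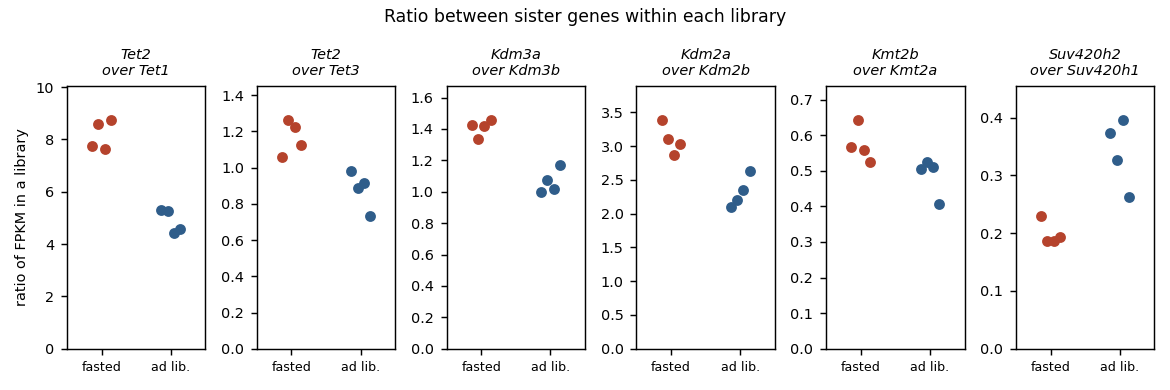
Ratio of FPKM between sister genes within each library for 6 of the 8 pairs without overlap (fasted left, ad libitum right; each dot 1 library; axes start at 0). Tet2 over Tet3 lies above 1 in all fasted libraries, at 1.06 to 1.26, and below 1 in all ad libitum ones, at 0.732 to 0.984.

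Counts of rises and falls depended on scaling, and those of the members and of all genes did not move alike. Of all tested genes 1183 rose and 2015 fell in the main fit, beside 9 and 4 of the members. Median-ratio scaling gave 11 rises and 4 falls among members (1762 and 1935 among all tested genes). Equal-sum scaling gave 9 and 3 (1430 and 1967), and quantile normalization gave 11 and 2 (1792 and 1909). A correction for GC content and transcript length gave 15 and 3 (2287 and 2257). The members are long genes, with a median length of 5953 bases for the longest coding transcript beside 3240 over all tested genes. The slope of a library's values on transcript length was 0.0537 and 0.0535 log2 units per doubling of length in replicate 4 of the fasted and of the ad libitum group, the highest of the libraries. It was lowest in ad libitum replicate 1, at -0.0653. Its difference between the groups was 0.0299 (exact two-sided permutation test, p = 0.314). That test did not use the shared replicate numbers. Within each number the fasted library had the higher slope, though barely so in replicate 4. All 9 members that rose and 3 of the 4 that fell passed with the GC and length correction too, and Setd6 did not.

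Partners and neighbours of these enzymes were read from 9 lists with 150 symbols, of which 124 genes were tested, 10 rose and 13 fell. These were 8.06% and 10.5% of the genes tested there, beside 9.56% higher and 16.3% lower among all tested genes. Without ad libitum replicate 3 there were 6 rises and 7 falls, without ad libitum replicate 2 there were 7 falls, and with the block 16 rose and 16 fell. Of 13 other lysine methyltransferases 3 rose, with log2 changes of 0.28 for Nsd1 and 0.21 for Ash1l, both H3K36 dimethylases, and 0.24 for Smyd3 (limma adjusted p = 0.00173, 0.0272 and 0.0107 in that order). The 14 subunits of the COMPASS complexes, in which Kmt2 and Setd1 enzymes work, held 0 rises in limma (1 at an unadjusted p under 0.05) and 3 falls. The falls were -0.25 for Rbbp5, -0.23 for Ash2l and -0.19 for Wdr82 (limma adjusted p = 0.00587, 0.0253 and 0.0184). Rbbp5 and Ash2l are core subunits that the catalytic ones need for activity, and Wdr82 belongs to the Setd1a and Setd1b complexes.

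Of 9 tested partners of Ezh1 and Ezh2 in Polycomb repressive complex 2 none passed in limma, with 2 at an unadjusted p under 0.05. The smallest p-values were those of Aebp2 (log2 change 0.15, limma adjusted p = 0.0662, and 0.0278 with the block) and Rbbp7 (log2 change 0.11, limma adjusted p = 0.109). Of 16 other JmjC proteins and partners of Kdm1a 3 rose and 2 fell. Mina, a ribosomal oxygenase, averaged 1.84 FPKM ± 0.226 in fasted and 3.49 FPKM ± 0.338 in ad libitum libraries (SD, n = 4 each), with a log2 change of -0.66 (limma adjusted p = 0.00032). Gse1, a partner of the CoREST complex, Jmjd1c, a relative of Kdm3a, and the X-linked H3K9 eraser Phf8 rose by 0.35, 0.25 and 0.21 on the log2 scale (limma adjusted p = 0.00402, 0.0245 and 0.038).

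Readers of methylated DNA and partners of Dnmt and Tet proteins held 1 rise and 4 falls among 20 tested. Uhrf2, which binds hydroxymethylated cytosine, changed by -0.34, Cxxc4, a CXXC protein reported to lower Tet2 protein, by -0.29, and Ogt, the O-GlcNAc transferase that binds Tet proteins, by -0.18 on the log2 scale (limma adjusted p = 0.00132, 0.00479 and 0.0211). Zbtb33 (Kaiso), which binds methylated DNA, rose by 0.19 (limma adjusted p = 0.0399). Of 11 readers of methylated H3 Cbx7, a Polycomb reader of H3K27 methylation, rose by 0.27 and Cbx1, which encodes HP1-beta, a reader of H3K9 methylation, changed by -0.39 (limma adjusted p = 0.00844 and 0.000488). Of 9 arginine methyltransferases Prmt2 fell, with a log2 change of -0.35 (limma adjusted p = 0.00555).

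In the S-adenosylmethionine cycle 1 of 15 tested genes rose and 0 fell in limma, with 1 in each direction at an unadjusted p under 0.05. Among 17 genes of 2-oxoglutarate supply and its competitors 1 rose and 2 fell. Idh2, the mitochondrial isocitrate dehydrogenase that makes 2-oxoglutarate, averaged 19.3 FPKM ± 1.32 in fasted and 13.6 FPKM ± 1.31 in ad libitum libraries (SD, n = 4 each; log2 change 0.48, limma adjusted p = 0.00113). Idh1, its cytosolic counterpart, averaged 11.4 FPKM ± 0.809 in fasted and 13.9 FPKM ± 0.534 in ad libitum libraries (SD, n = 4 each; log2 change -0.27, limma adjusted p = 0.00723). D2hgdh, which clears a metabolite that competes with 2-oxoglutarate, had a log2 change of -0.21 (limma adjusted p = 0.0483).

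Markers of several cell types were called between the groups, where 9.56% of all tested genes rose and 16.3% fell. The marker lists are short, and their counts carry no test of a list. Of 10 excitatory neuron markers 1 rose and 6 fell (summed level 651 to 717 FPKM in fasted and 642 to 766 FPKM in ad libitum libraries), and of 10 microglial markers 5 fell (115 to 133 FPKM in fasted and 126 to 177 FPKM in ad libitum libraries). Of 7 markers of oligodendrocyte precursors 4 fell (64.5 to 74.7 FPKM in fasted and 73.6 to 82.6 FPKM in ad libitum libraries), and of 6 endothelial markers 2 fell (30.0 to 37.0 FPKM in fasted and 37.3 to 44.3 FPKM in ad libitum libraries). Of 10 astrocyte markers 1 rose and 3 fell, of 8 oligodendrocyte markers 1 rose, and of 5 tested fibroblast and meningeal markers 1 fell. None of 10 inhibitory neuron markers, of 3 tested markers of dividing cells or of 2 tested blood markers passed in limma (1, 1 and 0 at an unadjusted p under 0.05), and none of the choroid plexus markers reached the filter. No marker was at 0 in every library. The part of these marker changes in the changes of the methylation enzymes was not tested.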

How the data were processed

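RNA-seq values of 8 libraries of mouse occipital cortex, 4 fasted for 48 h and 4 fed ad libitum, were used. The deposited values are FPKM, made by the authors with TopHat on mm10, per the submitters' processing notes; the quantifier, the annotation, strandedness and any scaling between libraries were not given in the sources used here. Symbols on several rows (282, none a member) kept the row with the highest mean. Genes that reached 1 FPKM in 4 or more libraries were fitted with limma 3.58.1 (trend and robust) in R 4.3.3 on log2(FPKM + 1), which understates changes of low genes, and adjusted by Benjamini-Hochberg over all of them. Steps were tested on simulated data. Coordinates, lengths and GC content came from GENCODE M21 (GRCm38, the same assembly as mm10), promoter sequences from RefSeq. Python 3.11.15 with pandas 2.3.3, numpy 2.4.6, scipy 1.17.1 and matplotlib 3.10.9 made the tables and figures.

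The members and lists were chosen with earlier results of these data known. Genes named are every member called, a set list of others (Tet, Dnmt, Ezh and Ehmt genes, Kdm1a, Kdm5c and Kdm6a), and up to 4 called genes per list, or 2 where none was called. A gene of these lists is not reported here. Sister ratios, Kdm4d, Kdm6b and other members outside this rule were chosen after their values were seen.

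Replicate numbers are shared between the groups. Deviations of same-numbered libraries from their group means correlated at 0.574, 0.496, 0.382 and 0.523 over tested genes. All were above the bound of 0.1 set for it. By that rule the numbers were taken to pair the libraries, though no label says that they do. The main fit, its intervals and the permutation tests did not use the pairing, which entered only the alternatives with the block. Over 11505 autosomal coding genes the values were 0.339, 0.199, 0.0787 and 0.371, with number 3 under that bound. Differently numbered libraries reached 0.381 over tested genes and 0.218 over autosomal coding genes. Alternatives were other scalings, filters and pseudocounts, a GC and length correction, the block, an odd and even term and each library left out.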

Additional observations from a re-analysis of the deposited data

Results flagged for a closer look

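In 90 groups of 4 libraries (45 genes in each feeding group) 2 had a library far from the rest of its group, where chance gives about 1 in 20. Setdb1 was lowest in fasted replicate 2, at 9.57 FPKM, while the other fasted libraries had 10.2 to 10.4 FPKM. Suv420h1 was highest in ad libitum replicate 4, at 10.04 FPKM, while the other ad libitum libraries had 9.17 to 9.23 FPKM.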

How the results depend on the processing

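No called member changed sign in any of the 19 alternatives, and 5 uncalled ones did. Members that rose (9) numbered 15 with the GC and length correction, 15 with the replicate block, 17 with both, and 5 to 14 when single libraries were left out. Over all tested genes the share that rose was 9.56%, and 18.5% with the correction, 14.3% with the block and 20.9% with both. Members that fell (4) numbered 2 with no filter on low values, 2 with quantile normalization, and 2 to 4 with single libraries left out. All genes called numbered 3198, and 5106 with the correction and the block. Genes of the context lists that rose (10) numbered 18 with median-ratio scaling, 18 with quantile normalization, 22 with the GC and length correction, 16 with the block, 27 with the correction and the block, and 6 to 14 with single libraries left out. Those that fell (13) numbered 7 to 18 with single libraries left out. The correction joined with the block was chosen after seeing the data. The block took no call of a member away. Depth limits genes near 1 FPKM most, such as Setd4, which stood for an estimated 34.3 to 44.7 fragments per library. The cause of the other differences between settings was not tested.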
